A study of Mus musculus with 8 samples.

Results

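The voltage-gated potassium channel genes of the mouse trigeminal ganglion, with the HCN pacemaker channels and the potassium channels opened by calcium or sodium, were followed as 1 group of 38 genes. The group was set by a list of gene symbols that leaves out the Kv4 channels and their KChIP partners. A gene was represented by its brightest probe set among those annotated with 1 symbol, that is, the one with the highest mean over 8 arrays. That gave values for 35 of the 38 genes, out of 18193 genes on the array, and Kcnb2, Kcng3 and Hcn4 were not analysed here. RNA came from trigeminal ganglia of adult male mice on a C57B/6XCBA background. A group of 4 control arrays was compared with 4 arrays of daDREAM transgenic mice, whose titles all carry the tag tg16. DREAM is the calcium-binding repressor encoded by Kcnip3, and in daDREAM mutations keep it bound to DNA when calcium rises. The labels describe the control genotype only as control. No source used here gives the promoter of the transgene, whether tg16 stands for a single founder line, or whether an array holds 1 animal or a pool. The series design text calls the arrays biological replicates. The p-values set each group difference against the spread between these arrays, which limma moderates over all genes.

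Potassium channels let potassium leave the neuron, which repolarises the action potential and holds the resting membrane away from threshold. Kv1, Kv3 and Kv7 channels differ in the voltage at which they open: Kv1 channels act near threshold, Kv3 channels end the spike quickly, and Kv7 channels carry the slow M-current that limits repetitive firing. HCN channels open on hyperpolarisation, pass a mixed inward cation current and promote repetitive firing, and in sensory neurons they are studied for their part in pain. DREAM, also called KChIP3, is known both as a repressor that binds DNA at a short element and as a partner of Kv4 channels, which is why channel genes outside the Kv4 complex are of interest in these animals.

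The ganglion markers were in place on all 8 arrays. Of 12 sensory neuron markers 11 were measured, none had a mean below a log2 value of 6, and their summed level, as log2, ran from 16.43 to 16.57 in control and from 16.53 to 16.60 in daDREAM ganglia. Kcnip3 itself read 10.23 ± 0.15 in control and 10.26 ± 0.07 in daDREAM ganglia (SD, n = 4) at the brighter of its 2 probe sets. As the mean of both it differed by 0.15 (limma adjusted p = 0.453). No source used here tells whether these probe sets cover the transgene, so Kcnip3 is no check of the labels. Of 6 satellite glia markers 3 read higher and 3 lower in daDREAM ganglia, and of 4 measured Schwann cell markers 2 read higher and 2 lower, with 0 past the test. Arrays differed in the level of markers listed for other tissues. Some of these may also be expressed by cells of the ganglion, and their source was not tested. All 10 central nervous system markers read higher in daDREAM ganglia, with 1 past the test, and their summed log2 level ran from 12.44 to 13.45 in control and from 13.47 to 13.93 in daDREAM ganglia, so that the groups did not overlap; of these markers Zic2 alone had a mean below 6. The 9 skeletal muscle markers had a summed log2 level of 11.48 and 11.39 on control replicates 1 and 3 and of 9.46 to 9.62 on the other arrays. The 7 measured pituitary markers reached 12.69 on control replicate 3, 12.81 on daDREAM replicate 3 and 14.19 on daDREAM replicate 4, against 10.02 to 11.26 elsewhere. Signal of 18S ribosomal RNA was highest on control replicates 1 and 4, at a mean log2 value of 9.41 and 10.65 against 7.71 to 8.11. What part these differences have in the channel values was not tested. In whole ganglia, fewer cells of a type and less RNA per cell cannot be told apart.

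No channel gene of the group passed the comparison of daDREAM with control ganglia. With limma and an adjusted p under 0.05 over all genes, 0 of the 35 measured members passed, where 2.00% of all genes did (179 higher and 185 lower), and the smallest adjusted p among the members was 0.132. At an unadjusted p under 0.05 there were 8 members, 22.9% of the 35, against 18.2% of all genes. Of these, Kcng4, Kcns1, Kcnh2, Kcnq5, Kcnab3 and Hcn2 read higher and Kcnh3 and Kcnq1 lower in daDREAM ganglia. With the mean of probe sets the count was 10 (6 higher and 4 lower), and with the replicate number as a block 9 (7 higher and 2 lower). After renewed quantile normalization the count was 6, with 3 in each direction. It was 5 without control replicate 1, without daDREAM replicate 2 and without daDREAM replicate 3, and 3 without control replicates 1 and 4, the arrays highest in 18S. The groups did not overlap for 3 members (8.57%), Kcng4, Kcns1 and Kcnq1, against 10.7% of all genes. These shares lie near those of all genes.

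Member differences, daDREAM minus control on the log2 scale, ran from -0.34 to 0.43, with a median of 0.03 beside 0.00 over all genes, and 22 were above 0 and 13 below. Standard errors ran from 0.07 to 0.23. At the brightest probe sets, the 95% intervals of all 35 members lay within 1 log2 unit of 0, and those of 28 lay within 0.5. An interval within 1 is short of a 2-fold change in either direction. These intervals do not cover the other probe sets of a gene, and that of a dimmer Kcnab2 probe set ran from 0.27 to 1.11. Only Kcna5 and Kcnh5 had a mean below 6, where 19.5% of all genes lie and where a probe set reads near background. These intervals are for each gene alone and are not adjusted for the number of genes.

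**Figure D1:**
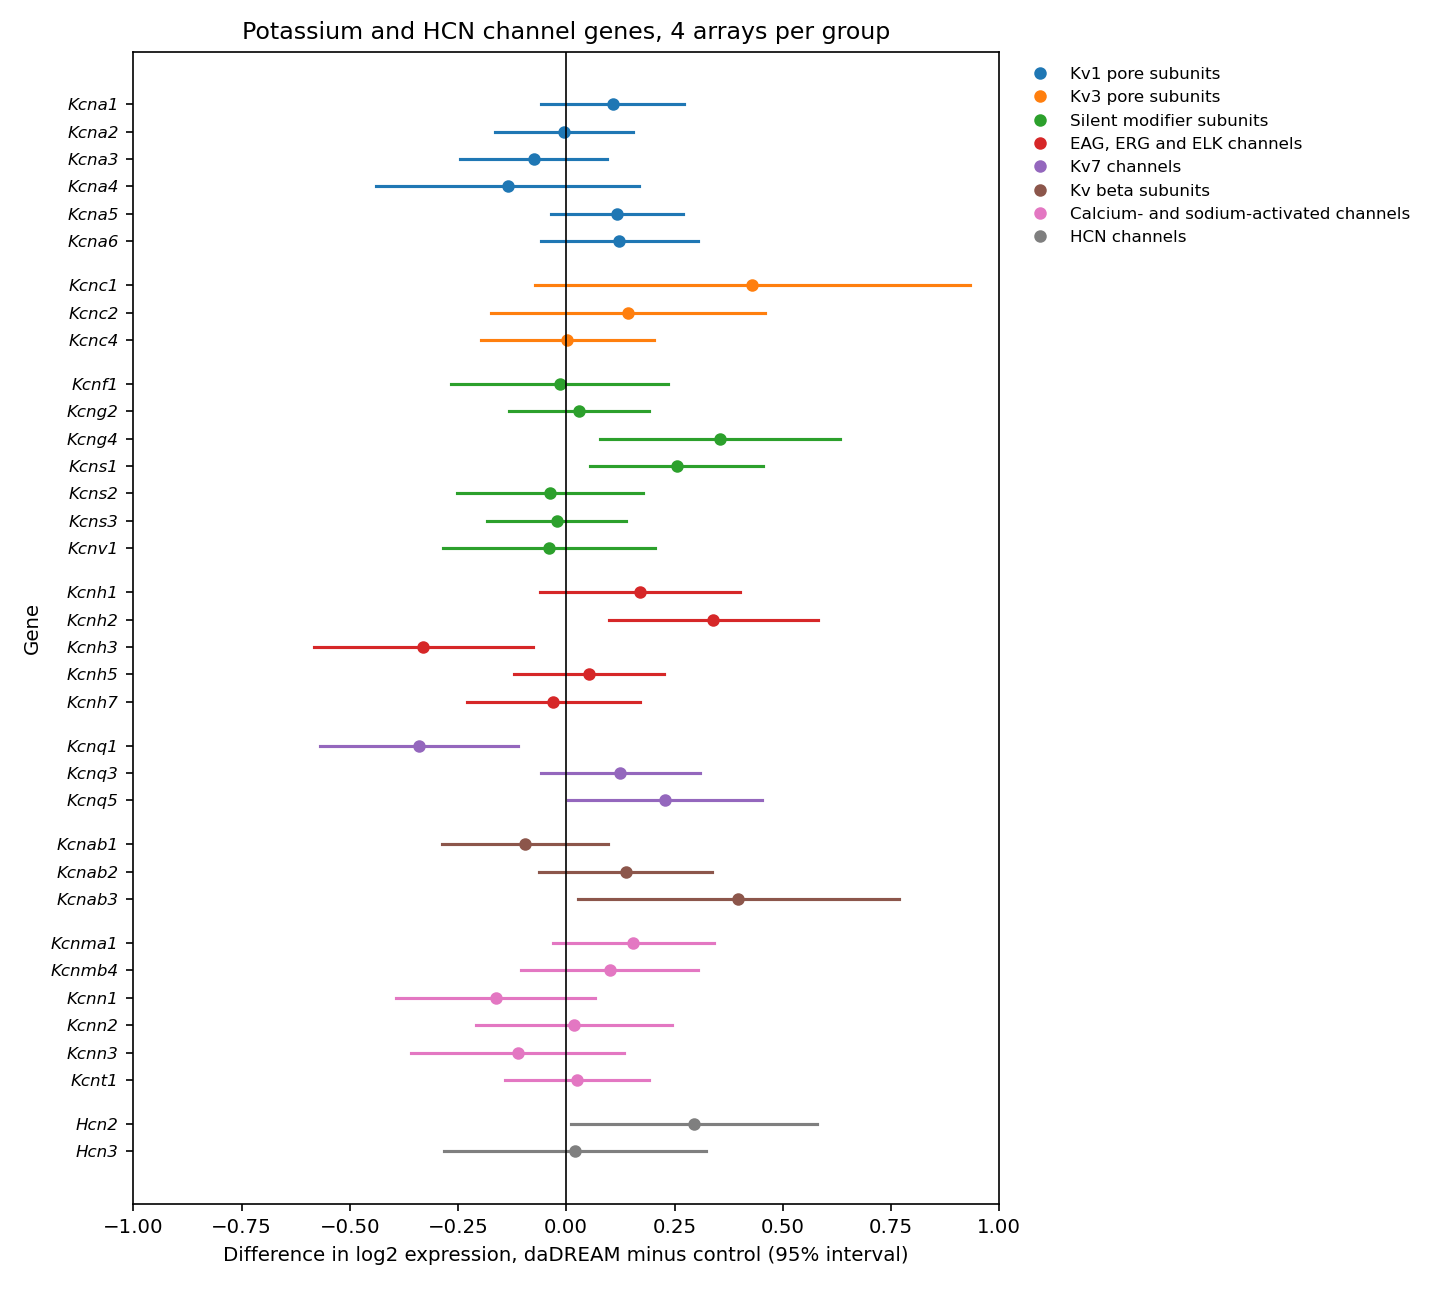
Difference in log2 expression (x axis, daDREAM minus control) for each measured channel gene (y axis), coloured by family, with points for the limma estimate and bars for its 95% interval, 4 arrays per group. Estimates at the brightest probe set of each gene lie between -0.34 and 0.43, every bar stays within 1 log2 unit of 0, and 8 bars do not cross 0.

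Kv1 channels, the delayed rectifiers of axons and juxtaparanodes, had 6 measured pore subunits, of which 0 passed and 0 had an unadjusted p under 0.05. Kcna1, which encodes Kv1.1, read 13.04 ± 0.12 in control and 13.14 ± 0.02 in daDREAM ganglia. Kcna2, encoding Kv1.2, read 11.96 ± 0.11 and 11.96 ± 0.03. The intervals of these differences ran from -0.06 to 0.27 for Kcna1 and from -0.16 to 0.15 for Kcna2. A dimmer Kcna2 probe set, with a mean of 9.45, differed by 0.46 with overlapping groups (interval 0.10 to 0.82, limma adjusted p = 0.176 over probe sets). The remaining Kcna2 probe sets differed by -0.06 and -0.07. Kcna5 had the smallest p of the family (limma adjusted p = 0.392) and read 5.63, 5.56, 5.70 and 5.65 on control replicates 1 to 4 and 5.70, 5.69, 5.77 and 5.85 on daDREAM replicates 1 to 4. Its groups overlapped and all 8 values lay below 6. Kcna6, encoding Kv1.6, differed by 0.12, Kcna3, the Kv1.3 channel known from T cells and microglia, by -0.08, and Kcna4, the only Kv1 subunit here with fast inactivation of its own, by -0.14 with the widest interval of the family (-0.44 to 0.17).

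Kv3 channels open at strongly positive potentials and allow fast spiking. All 3 measured subunits read above 0, and 0 passed. Kcnc1, which encodes Kv3.1, had the largest difference of the whole group at the brightest probe sets. It read 10.17, 10.01, 10.39 and 9.28 on control replicates 1 to 4 and 10.09, 10.67, 10.75 and 10.06 on daDREAM replicates 1 to 4. Control replicate 4 stood lowest and the other 7 arrays overlapped. The difference was 0.43 (SE 0.23, interval -0.07 to 0.93, limma adjusted p = 0.345). It was 0.20 without control replicate 4, the array that also had the lowest sum of central nervous system markers, 0.19 after the 2 arrays highest in 18S were left out, 0.14 as the mean of its probe sets and 0.75 after control replicates 1 and 3, the arrays with the most Acta1, were left out. Kcnc2, encoding Kv3.2, was likewise lowest on control replicate 4 (8.45) and highest on daDREAM replicate 3 (9.28), and differed by 0.14, which was 0.0067 without control replicate 4. On the same 2 arrays Gfap read 8.29 and 11.24, its lowest and highest values. Cbln1, Olig1 and Slc17a7 also had their lowest and highest values there. Slc1a2, Zic1, Neurod1 and Gabra6 were lowest on control replicate 4 but highest on other arrays. Aqp4 was highest on daDREAM replicate 3 but not lowest on control replicate 4, and Zic2 was neither. Kcnc4, encoding Kv3.4, read 9.39 ± 0.15 and 9.39 ± 0.11.

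**Figure D2:**
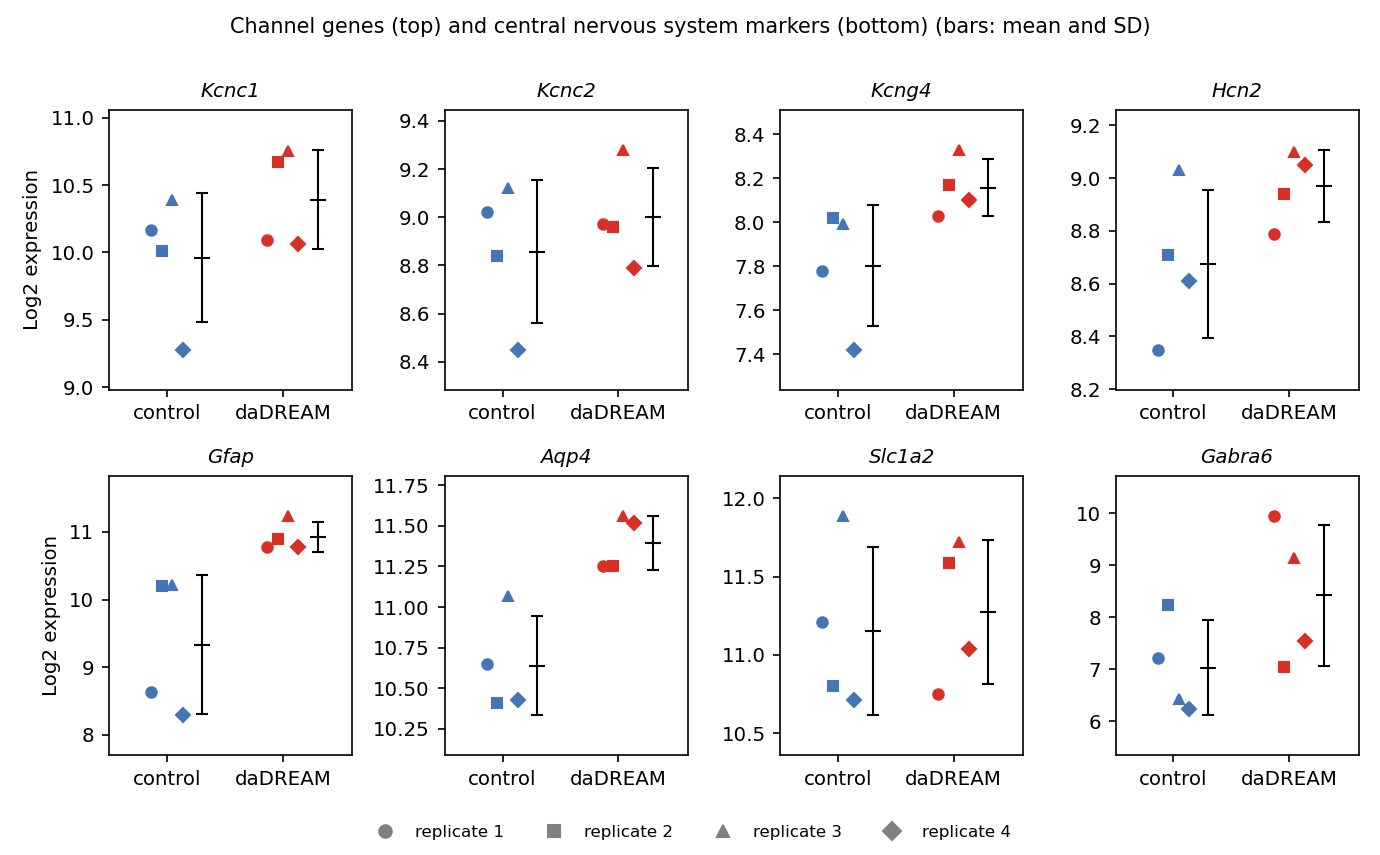
Log2 expression (y axis) of 4 channel genes in the top row and 4 central nervous system markers in the bottom row, by group (x axis), with 1 symbol per array, a shape per replicate number, and bars for the mean and SD of 4 arrays. Control replicate 4 is lowest for Kcnc1, Kcnc2, Kcng4, Gfap, Slc1a2 and Gabra6. DaDREAM replicate 3 is highest for Kcnc1, Kcnc2, Kcng4, Hcn2, Gfap and Aqp4. The genes shown are a selection and do not stand for the whole group. Of the 35 measured channel genes, 8 were lowest and 4 highest on control replicate 4. On daDREAM replicate 3, 9 were highest and 0 lowest. Kcnh3, which is not shown, was highest on control replicate 4 (9.4). Whether the channel genes and the markers share a source was not tested.

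Silent subunits of the Kv5, Kv6, Kv8 and Kv9 families form no channel alone and change the gating of Kv2 channels. Of 7 measured members 0 passed, and 2 had an unadjusted p under 0.05, both higher. Kcng4, encoding Kv6.4, read 7.78, 8.02, 7.99 and 7.42 on control replicates 1 to 4 and 8.03, 8.17, 8.33 and 8.10 on daDREAM replicates 1 to 4. The groups were apart by only 0.01, between control replicate 2 and daDREAM replicate 1, and control replicate 4 again stood lowest. The difference was 0.36 (1.28-fold, SE 0.13, limma adjusted p = 0.183), and 0.23 without that array. Over all alternative fits, described below, it ran from 0.15 to 0.44. Kcns1, which encodes Kv9.1 and is studied as a pain susceptibility gene, read 7.92, 8.19, 8.03 and 8.23 in control and 8.50, 8.38, 8.26 and 8.25 in daDREAM ganglia. Here too every daDREAM array was above every control array, by at least 0.02, with a difference of 0.26 (1.19-fold, SE 0.09, limma adjusted p = 0.183), and 0.14 without the 2 arrays with the most Acta1. Its largest value in an alternative fit was 0.33. Kcnf1, Kcng2, Kcns2, Kcns3 and Kcnv1 differed by between -0.04 and 0.03.

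The EAG, ERG and ELK channels share a cytoplasmic domain that resembles a cyclic nucleotide binding site. Of 5 measured members 0 passed, and 2 had an unadjusted p under 0.05, in opposite directions. Kcnh2, which encodes the ERG1 channel, read 9.54, 9.91, 10.08 and 9.71 on control replicates 1 to 4 and 10.21, 10.23, 10.13 and 10.03 on daDREAM replicates 1 to 4. Only control replicate 3 reached into the daDREAM range. The difference was 0.34 (1.27-fold, SE 0.11, limma adjusted p = 0.150), and 0.16 without the 2 arrays highest in 18S. Its largest value in an alternative fit was 0.50, and its smallest limma adjusted p was 0.0634, without control replicate 3. Kcnh3, which encodes the ELK2 channel of forebrain neurons, read 9.00, 8.83, 9.08 and 9.40 in control and 8.57, 8.80, 8.78 and 8.84 in daDREAM ganglia. The groups met at control replicate 2 and daDREAM replicate 4. The difference was -0.33 (1.26-fold lower, SE 0.11, limma adjusted p = 0.176), and its 3 dimmer probe sets also read below 0, from -0.27 to -0.11. Without the 2 arrays highest in 18S it was -0.21, and over all alternative fits it reached -0.41. Kcnh5 and Kcnh7 differed by 0.05 and -0.03, and Kcnh1 is described with its second probe set.

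DREAM is known to bind DNA at elements with the core GTCA, so the promoters of the group were searched for these letters. RefSeq promoter sequences of build GRCm38.p6 were found for 26 of the 38 genes, in 36 windows of 250 bases that end just before an annotated start. The motif GTCA, read on both strands and so also as TGAC, occurred in 30 of the 36 windows (83.3%), beside 80.2% of all 32851 windows. The median was 1 match per window in the group, beside 2 over all windows. The 50 bases after the start were not searched. A match is a run of letters and shows no binding. Among members with an unadjusted p under 0.05 or a probe set that passed, 7 windows were found, and 4 of them are printed, chosen to show windows with 0, 1, 2 and 3 matches. The other 3, 1 of Kcns1 and 2 of Kcnq5, hold 1 match each. They are written 5′ to 3′ on the gene's strand, with GTCA or TGAC in capitals.
Hcn2, chr10:79716384-79716633, plus strand, 3 matches: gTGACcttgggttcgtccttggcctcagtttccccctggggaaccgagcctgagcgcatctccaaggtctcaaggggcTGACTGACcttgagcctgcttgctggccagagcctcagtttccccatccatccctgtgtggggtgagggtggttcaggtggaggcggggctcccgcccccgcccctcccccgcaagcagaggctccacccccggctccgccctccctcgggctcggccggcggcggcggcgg
Kcnh1, chr1:192190527-192190776, plus strand, 2 matches: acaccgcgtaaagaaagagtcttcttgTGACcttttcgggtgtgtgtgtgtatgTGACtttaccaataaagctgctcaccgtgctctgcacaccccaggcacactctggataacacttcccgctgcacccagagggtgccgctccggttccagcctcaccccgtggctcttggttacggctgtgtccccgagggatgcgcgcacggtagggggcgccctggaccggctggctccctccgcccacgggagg
Kcnh2, chr5:24329592-24329841, minus strand, 1 match: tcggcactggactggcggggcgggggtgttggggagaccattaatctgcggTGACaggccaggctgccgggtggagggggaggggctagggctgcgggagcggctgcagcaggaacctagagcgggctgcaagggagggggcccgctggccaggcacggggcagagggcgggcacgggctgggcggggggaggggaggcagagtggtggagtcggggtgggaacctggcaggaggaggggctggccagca
Kcng4, chr8:119635681-119635930, minus strand, 0 matches: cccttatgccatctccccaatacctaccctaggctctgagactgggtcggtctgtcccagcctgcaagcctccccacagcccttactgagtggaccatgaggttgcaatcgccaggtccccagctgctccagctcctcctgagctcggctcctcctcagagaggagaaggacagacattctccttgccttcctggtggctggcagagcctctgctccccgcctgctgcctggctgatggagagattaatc

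Kv7 channels carry the M-current in neurons. Of 3 measured members 0 passed, and 2 had an unadjusted p under 0.05. Kcnq1, the subunit of heart and epithelia, had the smallest p of the whole group at the brightest probe sets. It read 6.73, 6.57, 6.61 and 6.88 on control replicates 1 to 4 and 6.14, 6.27, 6.49 and 6.53 on daDREAM replicates 1 to 4. Every daDREAM array was below every control array, by at least 0.04. The difference was -0.34 (1.27-fold lower, SE 0.10, limma adjusted p = 0.132), and -0.52 without the 3 arrays with the most Gh. Kcnq5, a neuronal M-channel subunit, read 7.23, 7.04, 6.99 and 7.32 in control and 7.55, 7.47, 7.24 and 7.23 in daDREAM ganglia at its brightest probe set. The groups overlapped, with a difference of 0.23 (limma adjusted p = 0.269), and of -0.05 as the mean of its 3 probe sets. Kcnq3, the common partner of neuronal M-channels, read 9.62 ± 0.08 and 9.75 ± 0.14, a difference of 0.13.

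Beta subunits are cytoplasmic proteins that bind Kv1 channels, and some of them speed inactivation. Of 3 measured members 0 passed. Kcnab3 read 7.43, 7.52, 7.98 and 7.87 on control replicates 1 to 4 and 7.76, 8.43, 8.35 and 7.85 on daDREAM replicates 1 to 4. Only daDREAM replicates 2 and 3 stood above the control range. The difference was 0.40 (1.32-fold, SE 0.17, limma adjusted p = 0.248), while a dimmer probe set of the gene differed by -0.13 and the mean of both by 0.14. Kcnab1 and Kcnab2 differed by -0.10 and 0.14 at their brightest probe sets.

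Channels opened by calcium or sodium link firing to ion entry. Of 6 measured members 0 passed and 0 had an unadjusted p under 0.05. Kcnma1, the pore of the large-conductance BK channel, had the smallest p. It read 8.42, 8.68, 8.62 and 8.67 on control replicates 1 to 4 and 8.78, 8.69, 8.89 and 8.65 on daDREAM replicates 1 to 4. The groups overlapped, with a difference of 0.16 (SE 0.08, limma adjusted p = 0.354). Kcnmb4, the neuronal BK beta subunit, differed by 0.10. Of the small-conductance SK channels, which carry part of the after-hyperpolarisation, Kcnn1 differed by -0.16, Kcnn2 by 0.02 and Kcnn3 by -0.11. A second Kcnn1 probe set of nearly the same brightness differed by -0.19 (interval -0.36 to -0.02, limma adjusted p = 0.215 over probe sets). The sodium-activated channel Kcnt1 read 9.22 ± 0.06 and 9.24 ± 0.11.

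HCN channels had 2 measured members, and 0 passed. Hcn2, the cAMP-sensitive subunit studied in nociceptors, read 8.35, 8.71, 9.03 and 8.61 on control replicates 1 to 4 and 8.79, 8.94, 9.10 and 9.05 on daDREAM replicates 1 to 4. Control replicate 3 lay within the daDREAM range and control replicate 1 lowest of all arrays. The difference was 0.30 (1.23-fold, SE 0.13, limma adjusted p = 0.259). Without the 2 arrays highest in 18S, control replicates 1 and 4, it was 0.10, and over all alternative fits it reached 0.41. Hcn3, which is little affected by cAMP, read 8.22 ± 0.32 in control and 8.24 ± 0.11 in daDREAM ganglia.

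**Figure D3:**
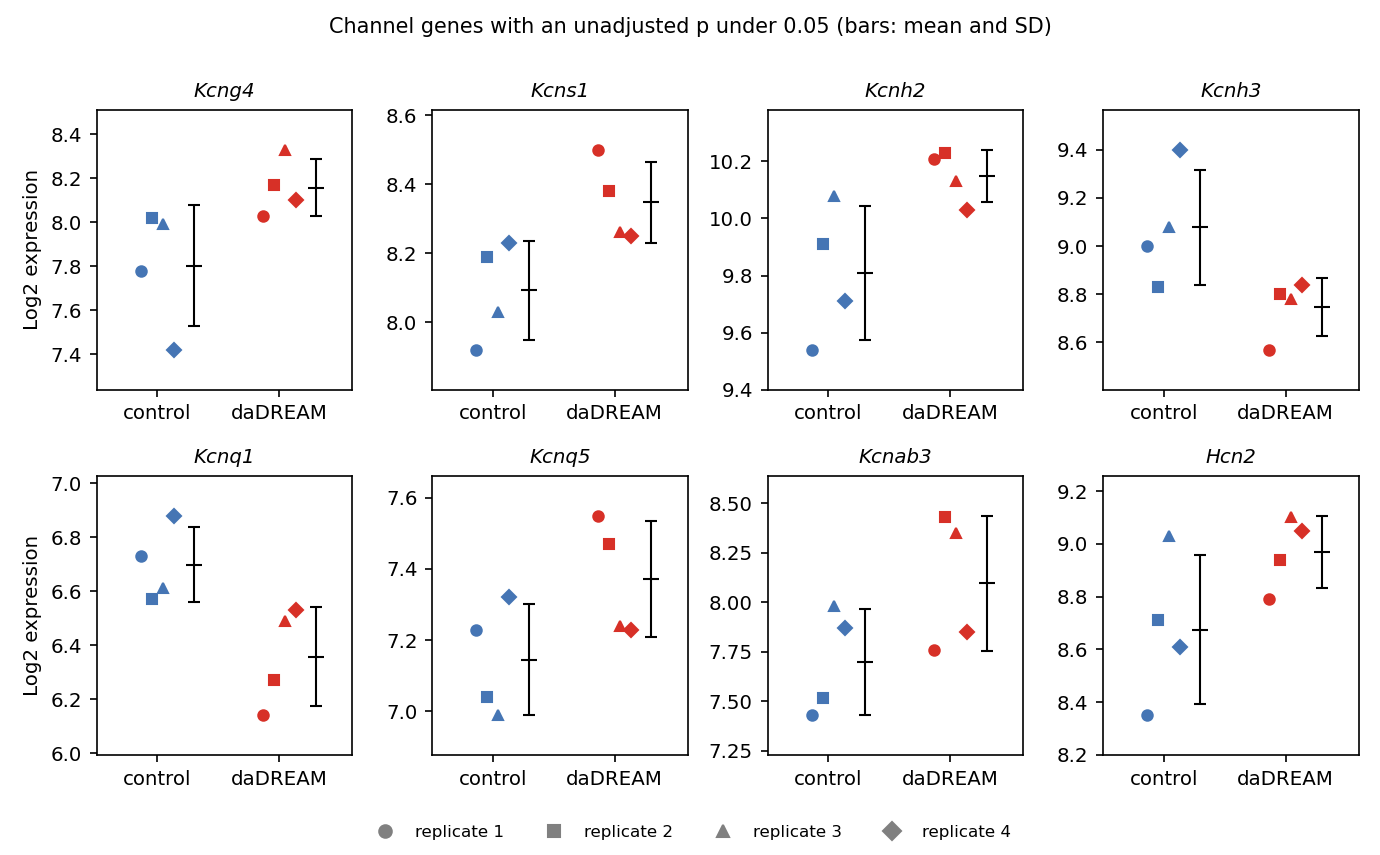
Log2 expression (y axis) by group (x axis) of the 8 channel genes with an unadjusted p under 0.05, with 1 symbol per array, a shape per replicate number, and bars for the mean and SD of 4 arrays. The groups are apart for Kcng4, Kcns1 and Kcnq1 and overlap for the other 5 genes.

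Probe sets other than the brightest were used as a check, since 20 of the 35 genes had more than 1. In a limma fit over all 45037 probe sets that are not controls, 2 of the 70 probe sets of the group passed at an adjusted p under 0.05 (2.86%), beside 2.74% of all probe sets, and both were lower in daDREAM ganglia. The first belongs to Kcnh1, the EAG1 channel. This dimmer probe set fell 1.55-fold: it read 8.12, 8.18, 8.39 and 8.47 on control replicates 1 to 4 and 7.51, 7.67, 7.72 and 7.73 on daDREAM replicates 1 to 4. The groups were apart by 0.39. The difference was -0.63 (SE 0.09, limma adjusted p = 0.00315 over probe sets). The brightest Kcnh1 probe set went the other way without passing, with 9.07 ± 0.18 in control and 9.24 ± 0.15 in daDREAM ganglia. No source used here tells which stretch of the transcript each probe set covers, so the values cannot be assigned to isoforms. The call was lost without the 3 arrays with the most Gh, control replicate 3 and daDREAM replicates 3 and 4, at the same size (-0.67, adjusted p = 0.0776).

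The second belongs to Kcnq5. It read 5.75, 5.72, 5.96 and 6.12 in control and 5.38, 5.51, 5.41 and 5.41 in daDREAM ganglia, a fall of 1.38-fold (difference -0.46, SE 0.09, limma adjusted p = 0.0236 over probe sets). Its mean over arrays was 5.66, near background, and another dim probe set of the gene differed by 0.09. The call was lost without control replicate 3 (adjusted p = 0.0564) and without any of the 4 daDREAM arrays in turn (adjusted p from 0.0528 to 0.0778). It was also lost when the arrays highest in 18S, Gh or Acta1 were left out (adjusted p from 0.0686 to 0.266). In all these cases the difference stayed between -0.49 and -0.41.

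Of the 35 dimmer probe sets, 24 had the sign of the brightest one of their gene and 11 the opposite sign. Groups did not overlap for 5 of them (14.3%, beside 11.0% of all probe sets), those of Kcnh1 and Kcnq5 and 1 each of Kcnab2, Kcna6 and Kcnma1, which were named after their values were seen. At Kcnab2 it read 9.90, 10.71, 11.10 and 10.63 on control replicates 1 to 4 and 11.34, 11.21, 11.30 and 11.24 on daDREAM replicates 1 to 4. Control replicate 1 stood far below the others, and the difference of 0.69 did not pass (SE 0.19, limma adjusted p = 0.0896 over probe sets). Without control replicate 1 it was 0.46, and without control replicate 3 it was 0.86 and passed (adjusted p = 0.0213). It also passed without the 2 arrays with the most Acta1 signal. Without the 2 arrays highest in 18S the Kcnab2 difference was 0.37 and did not pass (limma adjusted p = 0.198). After renewed quantile normalization it was 0.64 and did not pass (limma adjusted p = 0.120). At Kcna6 it read 7.24 to 7.88 in control and 7.97 to 8.10 in daDREAM ganglia, a difference of 0.43 (adjusted p = 0.111), which was 0.18 without the 2 arrays highest in 18S. At Kcnma1 it read 4.94 to 5.18 and 5.25 to 5.47, all below 6.

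**Figure D4:**
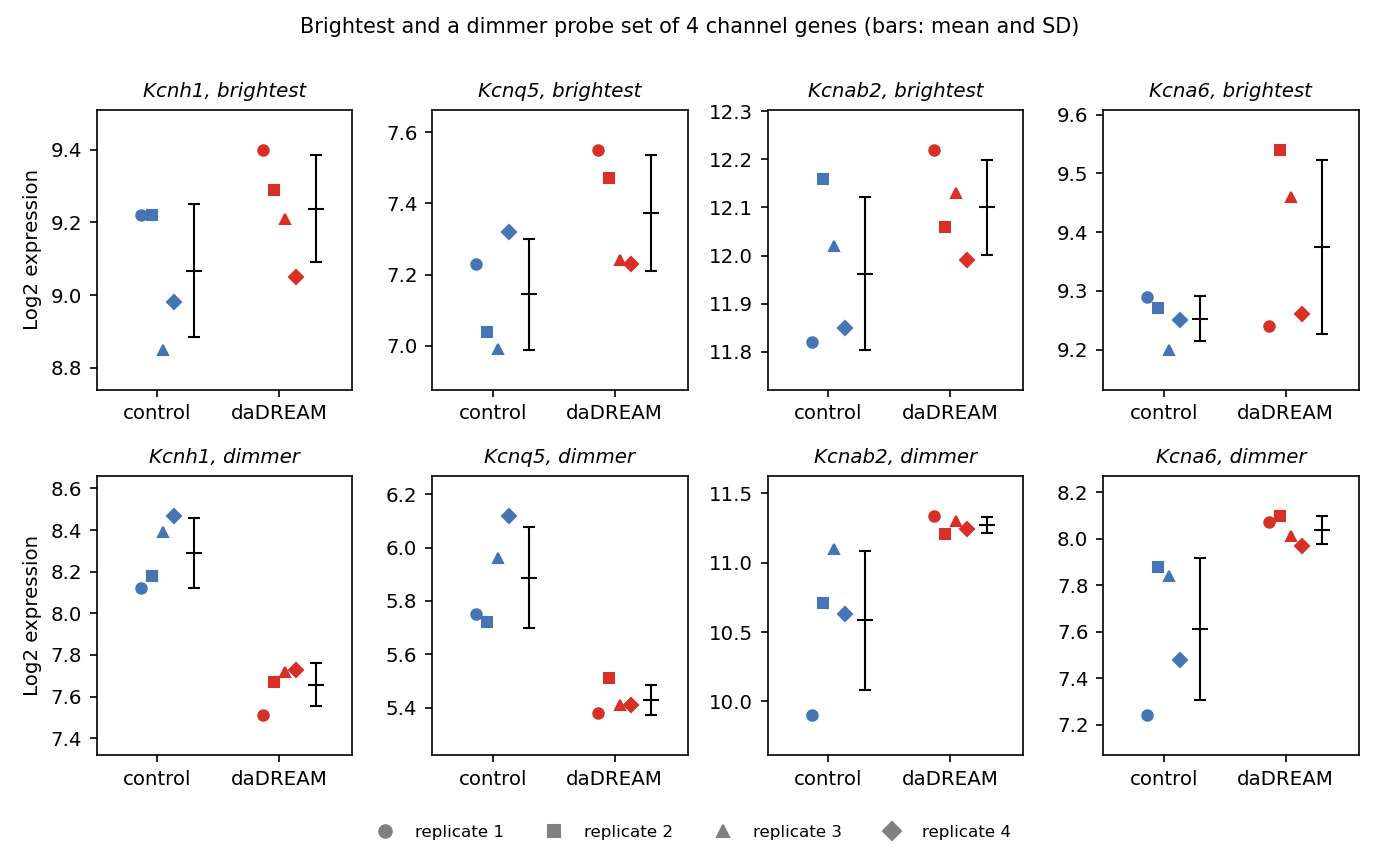
Log2 expression (y axis) by group (x axis) at the brightest probe set (top row) and at a dimmer probe set (bottom row) of Kcnh1, Kcnq5, Kcnab2 and Kcna6, with 1 symbol per array, a shape per replicate number, and bars for the mean and SD of 4 arrays. The groups overlap in the top row. The bottom row shows probe sets picked because their groups do not overlap, lower in daDREAM for Kcnh1 and Kcnq5 and higher for Kcnab2 and Kcna6. The dimmer probe sets of Kcnq5 and Kcna6 that are not shown overlap, with differences of 0.085 and 0.135.

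Other subunits and partners of these channels were read from the same fit. Of 36 listed genes 27 were measured, 1 was higher and 0 lower at an adjusted p under 0.05 (2.00% of all genes passed), and 5 had an unadjusted p under 0.05 (18.5%, beside 18.2% of all genes). Kcne1l, a small accessory subunit of the KCNE family that modifies Kv7 channels, rose 1.42-fold: it read 6.55, 6.34, 6.68 and 6.45 on control replicates 1 to 4 and 7.07, 7.09, 7.11 and 6.79 on daDREAM replicates 1 to 4. The groups did not overlap, and the difference was 0.51 (SE 0.10, limma adjusted p = 0.0193). The call was lost without control replicate 1 or 2 or daDREAM replicate 1, 2 or 3 (adjusted p from 0.0520 to 0.0787), and when the arrays highest in 18S or in Gh were left out, while the value stayed between 0.46 and 0.63 in these cases. Kcnmb2 and Kcnmb1, beta subunits of the BK channel, read lower without passing, by -0.41 (adjusted p = 0.0659) and -0.49 (adjusted p = 0.0827). For Kcnmb2 the groups did not overlap, with 7.52 to 7.94 in control and 7.16 to 7.45 in daDREAM ganglia. It passed without control replicate 2 (-0.47, adjusted p = 0.0409), and as the mean of its probe sets it differed by -0.18 (adjusted p = 0.3003). Kcnmb1 passed as the mean of its probe sets (-0.40, adjusted p = 0.0411). Pex5l, the HCN auxiliary protein TRIP8b, differed by -0.20 (adjusted p = 0.204), with groups apart by 0.01, and by -0.46 as the mean of its 4 probe sets, where it passed (adjusted p = 0.0176).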

How the data were processed

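Expression was measured on 8 Affymetrix mouse arrays, 4 per group. The authors deposited log2 values, 1 for each probe set and array, and the submitters' processing notes name RMA and affy. RMA subtracts background, quantile-normalizes probes over arrays and summarises each probe set, so a shift shared by most genes is removed. No source used here gives the affy version or the set definitions. Array medians ran from 7.09 to 7.13, no 2 arrays were identical, and their number limits the precision. Of 45101 probe sets 64 were Affymetrix controls, 34945 had 1 gene symbol in the platform annotation, 932 several and 9160 none.

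Groups were compared by limma's moderated test (version 3.58.1, R 4.3.3, two-sided, group as the only term) with Benjamini-Hochberg adjustment over 18193 genes, or over 45037 probe sets. No filter was applied. The fit was tested on simulated data. Figures used matplotlib 3.10.9. Members and lists were chosen with earlier results of these data known. Values on every array are given for members with an unadjusted p under 0.05 and for the member of each family with the smallest p, and of the related genes the 4 with the smallest p are named. Alternatives were the replicate number as a block, 2 other scalings, a filter on dim genes, other choices of probe set, another variance prior, array weights, an adjusted p under 0.10 and dropping each array in turn. Fits that drop the arrays highest in 18S, Gh or Acta1 were chosen after seeing the data.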

Additional observations from a re-analysis of the deposited data

Results flagged for a closer look

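In 4 of 94 groups of 4 arrays, 70 of them from the channel genes, a single array stood far from the other 3, where chance gives about 5% of groups. Kcnh7 read 7.32 on control replicate 4, against 6.94 to 7.0 on the other control arrays. Kcnmb4 read 9.65 on control replicate 2, against 9.38 to 9.42. Kcnt1 read 9.08 on daDREAM replicate 4, against 9.28 to 9.31. Kcne1l read 6.79 on daDREAM replicate 4, against 7.07 to 7.11, and without that array its difference was 0.59 (limma adjusted p = 0.00972).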

How the results depend on the processing

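No channel gene passed in any of the alternatives run (0 of 35 with limma, or 0 of 33 where genes with a mean below 6, Kcna5 and Kcnh5 among them, were left out, with 3 to 10 at an unadjusted p under 0.05). Of 663 member values under 19 alternatives, 612 kept their direction and 51 changed sign, all of them in 15 members. The cause of these changes was not tested, except that fewer arrays were fitted where arrays were left out.

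The number of genes that passed was 672 with the replicate block, 703 at an adjusted p under 0.10, 227, 98 and 171 without the arrays with the most 18S, Gh and Acta1 signal, and 229 to 349 on leaving out each array. Replicate numbers were not taken as pairs, and whether same-numbered arrays share a batch was not tested. Same-numbered arrays correlated at 0.21, 0.01, 0.33 and 0.36 in their deviations from the group mean. Control replicates 1, 3 and 4 correlated best with the daDREAM array of their own number, and control replicate 2 with daDREAM replicate 1. Under the block 3 member probe sets passed, the added one being that of Kcnab2 (0.69, adjusted p = 0.0467), and Kcnmb1 passed among the related genes (-0.49, adjusted p = 0.00846). Related genes past the test numbered 2 with the replicate block, 4 with the mean of probe sets, 3 at 0.10, 0 without the most 18S or the most Gh, and 0 to 1 on leaving out each array. Member probe sets past the test numbered 1 without the most 18S, 0 without the most Gh, and 1 to 3 on leaving out each array. The median member difference was 0.085 without the most Gh and 0.0775 without the most Acta1.

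Signs changed after renewed quantile normalization for Hcn3 (-0.0289), Kcnc4 (-0.0691), Kcnf1 (0.0013), Kcnn2 (-0.0391), Kcnt1 (-0.0431) and Kcnip3 (-0.038), and after median centring for Kcna2 (0.0075). With the mean of probe sets they changed for Kcna2 (0.0806), Kcnab1 (0.02), Kcnc4 (-0.0012), Kcnh1 (-0.2312), Kcnq5 (-0.0492) and Kcns3 (0.1013). With array weights they changed for Hcn3 (-0.0185), Kcnc4 (-0.0473), Kcnh7 (0.0215), Kcnn2 (-0.0361) and Kcnip3 (-0.0169). Without the most 18S they changed for Hcn3 (-0.185), Kcnc4 (-0.125), Kcng2 (-0.0275), Kcnh5 (-0.0075), Kcnh7 (0.07), Kcnn2 (-0.085) and Kcnip3 (-0.085). Without the most Gh they changed for Kcna2 (0.04), Kcnn2 (-0.0233) and Kcnv1 (0.10), and without the most Acta1 for Hcn3 (-0.135), Kcna2 (0.085) and Kcns2 (0.07).

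On leaving out each array the difference ran from -0.135 to 0.105 for Hcn3, -0.0383 to 0.035 for Kcna2, -0.05 to 0.0533 for Kcnc4, -0.105 to 0.055 for Kcnf1, -0.07 to 0.0567 for Kcnh7, -0.06 to 0.0775 for Kcnn2, -0.1167 to 0.0467 for Kcns2, -0.0517 to 0.0117 for Kcns3, -0.0067 to 0.0783 for Kcnt1, -0.1183 to 0.0317 for Kcnv1 and -0.0133 to 0.0933 for Kcnip3.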

Other observations

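Of the 35 channel genes, 9 had their highest value on daDREAM replicate 3 and 0 their lowest, while 7 had their lowest on control replicate 1, 8 on control replicate 4 and 8 on daDREAM replicate 4. Relative to each gene's own mean over 8 arrays, the median channel gene stood at 0.06 on daDREAM replicate 3, -0.02 on control replicate 1, -0.08 on control replicate 4 and -0.04 on daDREAM replicate 4. The median of all genes stood at -0.01, 0.01, -0.02 and -0.0062 on these arrays. Whether the channel genes differ from other genes in this was not tested.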
